A study of Mus musculus with 41 samples.

Results

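Type I interferon stimulated genes were followed in mouse liver and liver tumour, by gene and as a mean score. The set is a list of 37 genes taken by symbol from an expression table of 24511 genes, and all 37 were found in it. Genes were tested where their mean value reached 3 or more, which 12337 genes did, all 37 members among them. No measured value of these libraries enters the rule, but the list was written with earlier results of these data known.

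RNA-seq was done on polyA RNA of liver or tumour tissue of male C57BL/6 mice. Livers of the NC groups, which the labels call healthy without explaining NC, came from the genotypes named B6, MupHe, IgAkMup and CD8kMup. On a high-fat diet (HFD), B6 and IgAkCLM mice gave fatty livers that the labels also call healthy (HFD control), MupHe and IgAkMup mice gave NASH (steatohepatitis) livers, and MupHe, IgAkMup and CD8kMup mice gave HCC (hepatocellular carcinoma) tissue. There were 4 libraries in MupHe HCC and in IgAkMup HCC and 3 in every other group, 35 libraries in 11 groups. Age, time on diet, alleles and transgene promoters are not in the labels. Whether the libraries of a group come from different mice is not said either, and p-values then cover only the spread from library to library. HFD control and NASH share the diet and differ in genotype. CD8kMup NASH and CD8kCLM HFD control livers are not analysed here, because their columns could not be told apart by name.

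The table's column names hold tags of unexplained meaning. SS N marks B6 HFD control and IgAkMup NASH, Tri N marks IgAkCLM HFD control and MupHe NASH, SS H marks every HCC library and Tri NC every NC library. The tag and the group cannot be told apart in most comparisons, so results within a tag are given where they exist. On the second principal component of all genes, MupHe HCC 3 (29.1), IgAkMup HCC 5 (28.4) and IgAkMup HCC 9 (35.6) stood apart from the other 8 tumours, which ran from -24.7 to 5.12. The mean level of 8 hepatocyte markers, on the log2 scale of the table, was 15.25 to 15.75 in the liver libraries. It was 13.94 to 14.86 in the tumours, below every liver. No counts were used, so the depth behind each value is unknown.

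Type I interferons are secreted cytokines that bind a receptor made of IFNAR1 and IFNAR2 on nearly every cell type. The receptor's kinases phosphorylate transcription factors, STAT2 among them, which join IRF9 to form the complex ISGF3, and ISGF3 switches on genes whose promoters carry an interferon stimulated response element. The induced proteins sense viral nucleic acid, block translation and replication, or tune the response itself. Many of them also respond to type III interferon, and some to interferon gamma.

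The letters of that element's core stand in the promoters of several members, which describes sequence and shows no binding. The core is GAAA and GAAA with any 2 bases between them (TTTC and TTTC when read on the other strand). It was searched on both strands in RefSeq promoter windows of build GRCm38.p6, the assembly that mm10 is made from. A window reaches from 250 bases before to 50 after the start it was drawn for. That start need not be the outermost end of the gene, and the Ifit3 window lies wholly inside the gene. A match or its absence therefore concerns the window alone. Of the 26 members with a window, 15 (57.7%) held at least 1 match, against 3.99% of 27025 genes with a window, and 8 (30.8%) held at least 2 matches, against 0.266%. Matches that overlap one another were counted separately. The stretches below come from some of the members with a match. Members that lead later results but had no match (Ifi44, Irf7) or no window at hand (Usp18, Zbp1) are therefore not among them. Capitals mark the matched core, and each is written 5′ to 3′ along the gene's own strand.
Isg15 (chr4:156200850-156200921, minus strand): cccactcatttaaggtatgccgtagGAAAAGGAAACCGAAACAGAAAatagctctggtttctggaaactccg
Oas3 (chr5:120777700-120777759, minus strand): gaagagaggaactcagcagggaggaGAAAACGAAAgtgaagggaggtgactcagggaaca
Ifit1 (chr19:34640760-34640838, plus strand): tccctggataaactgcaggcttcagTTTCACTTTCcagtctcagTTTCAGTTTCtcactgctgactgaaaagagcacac
Rsad2 (chr12:26456538-26456597, minus strand): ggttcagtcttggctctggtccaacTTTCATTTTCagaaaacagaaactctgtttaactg
Bst2 (chr8:71537562-71537627, minus strand): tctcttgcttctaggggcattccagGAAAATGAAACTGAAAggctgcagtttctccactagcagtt
Apol9a (chr15:77411099-77411164, minus strand): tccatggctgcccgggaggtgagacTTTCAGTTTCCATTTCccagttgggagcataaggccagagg
Apol9b (chr15:77729010-77729075, plus strand): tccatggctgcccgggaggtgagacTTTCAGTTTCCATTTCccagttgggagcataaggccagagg
In Isg15, 3 matches overlap in 1 run, whereas Ifit1 has 2 separate ones. The stretches of Apol9a and Apol9b are identical over all 66 bases. Members with a match were Apol9a, Apol9b, Bst2, Ddx58, Ddx60, Eif2ak2, Ifih1, Ifit1, Ifit3, Isg15, Oas1a, Oas3, Rsad2, Stat2 and Trim30a. No match lay in the windows of Cmpk2, Dtx3l, Herc6, Ifi35, Ifi44, Ifit2, Irf7, Irf9, Oasl1, Oasl2 and Xaf1. The windows at hand included none for Dhx58, Ifi27l2a, Ifi27l2b, Mx1, Mx2, Oas2, Parp14, Parp9, Rtp4, Usp18 and Zbp1.

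Several members lie side by side in the genome, which bears on how reads are assigned to them. Ifit2, Ifit3 and Ifit1 lie in that order on chr19:34550550-34650009, Oas2, Oas3 and Oas1a on chr5:120730333-120907544, and Oasl2 and Oasl1 on chr5:114896926-114937911. The genes Dtx3l and Parp9 overlap by 558 bases on chromosome 16, and whether reads were counted by strand is not given in the sources used here, so reads in the overlap cannot be assigned to 1 of them. Related genes (Apol9a with Apol9b, Ifi27l2a with Ifi27l2b, Oas1a with Oas1g) may have shared reads. Their transcripts were not compared here. RefSeq annotates Mx1 and Mx2 as transcribed pseudogenes in this strain's genome, so their values report RNA and not an intact protein.

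Values are regularized log2 (rlog2) values, on which a difference of 1 is a 2-fold change and small changes of weakly expressed genes are understated. The mean score of a library is the mean over the 37 members of the value minus that gene's mean over the 35 libraries. It was lowest in B6 NC, at -0.54 ± 0.14 (SD, n = 3), and in the HFD controls, at -0.46 ± 0.16 in IgAkCLM (n = 3) and -0.38 ± 0.02 in B6 (n = 3). The other NC groups followed, with CD8kMup at -0.32 ± 0.29, IgAkMup at -0.17 ± 0.13 and MupHe at -0.10 ± 0.33 (n = 3 each). Tumours lay at 0.13 ± 0.16 in IgAkMup (n = 4), 0.30 ± 0.26 in CD8kMup (n = 3) and 0.38 ± 0.14 in MupHe (n = 4). NASH livers lay at 0.36 ± 0.24 in IgAkMup and 0.63 ± 0.13 in MupHe (n = 3 each).

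Ordered by their means, neighbouring groups differed by less than the larger of their SDs, except that MupHe NASH lay above MupHe HCC by more than either. In the 6 HFD controls the score ran from -0.63 to -0.33, and in the 6 NASH livers from 0.09 to 0.77, so these groups did not overlap. Scores of the 11 tumours ran from -0.02 (IgAkMup HCC 5) to 0.59 (MupHe HCC 7), above every HFD control. Among NC livers, MupHe NC 1 (0.28) and CD8kMup NC 1 (0.02) stood above their group mates, which lay at -0.28 and -0.31 in MupHe and at -0.50 and -0.48 in CD8kMup.

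**Figure D1:**
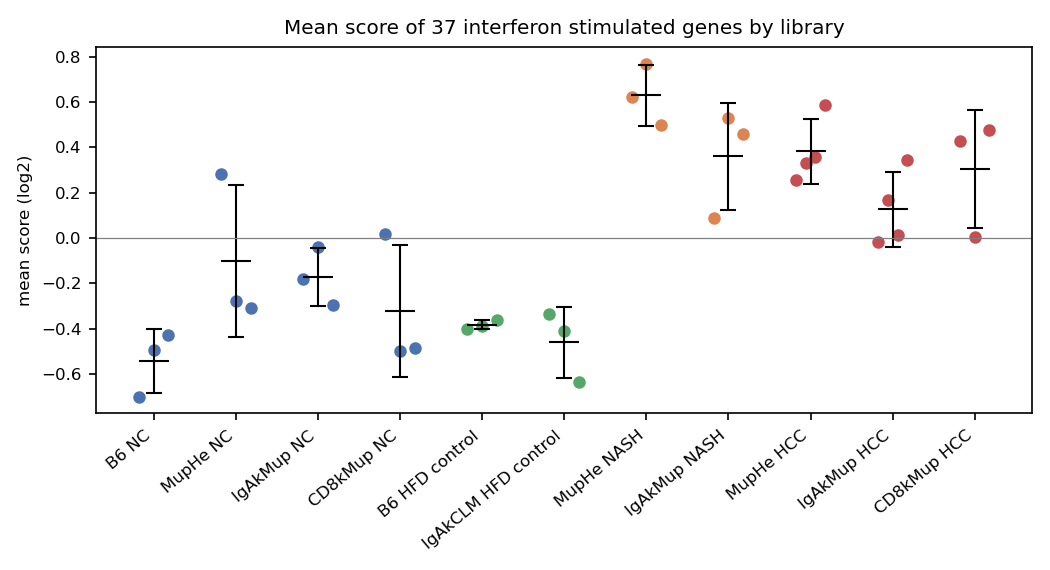
Mean score of the 37 interferon stimulated genes (vertical axis, log2) in each of 35 libraries by group, with points for libraries, a black dash for the group mean and bars for 1 SD. The 6 NASH livers lie between 0.09 and 0.77 and the 6 HFD controls between -0.63 and -0.33.

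By gene, the highest group mean was in MupHe NASH for 23 members, in IgAkMup NASH for 4, and in 1 of the tumour groups for the other 10. The lowest mean was in B6 NC for 13 members, B6 HFD control for 10, IgAkCLM HFD control and CD8kMup NC for 5 each, and IgAkMup HCC for 4. The heat map of all members shows mostly blue columns in the B6 NC and HFD control livers, red in most rows in NASH and a mixed pattern in HCC.

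**Figure D2:**
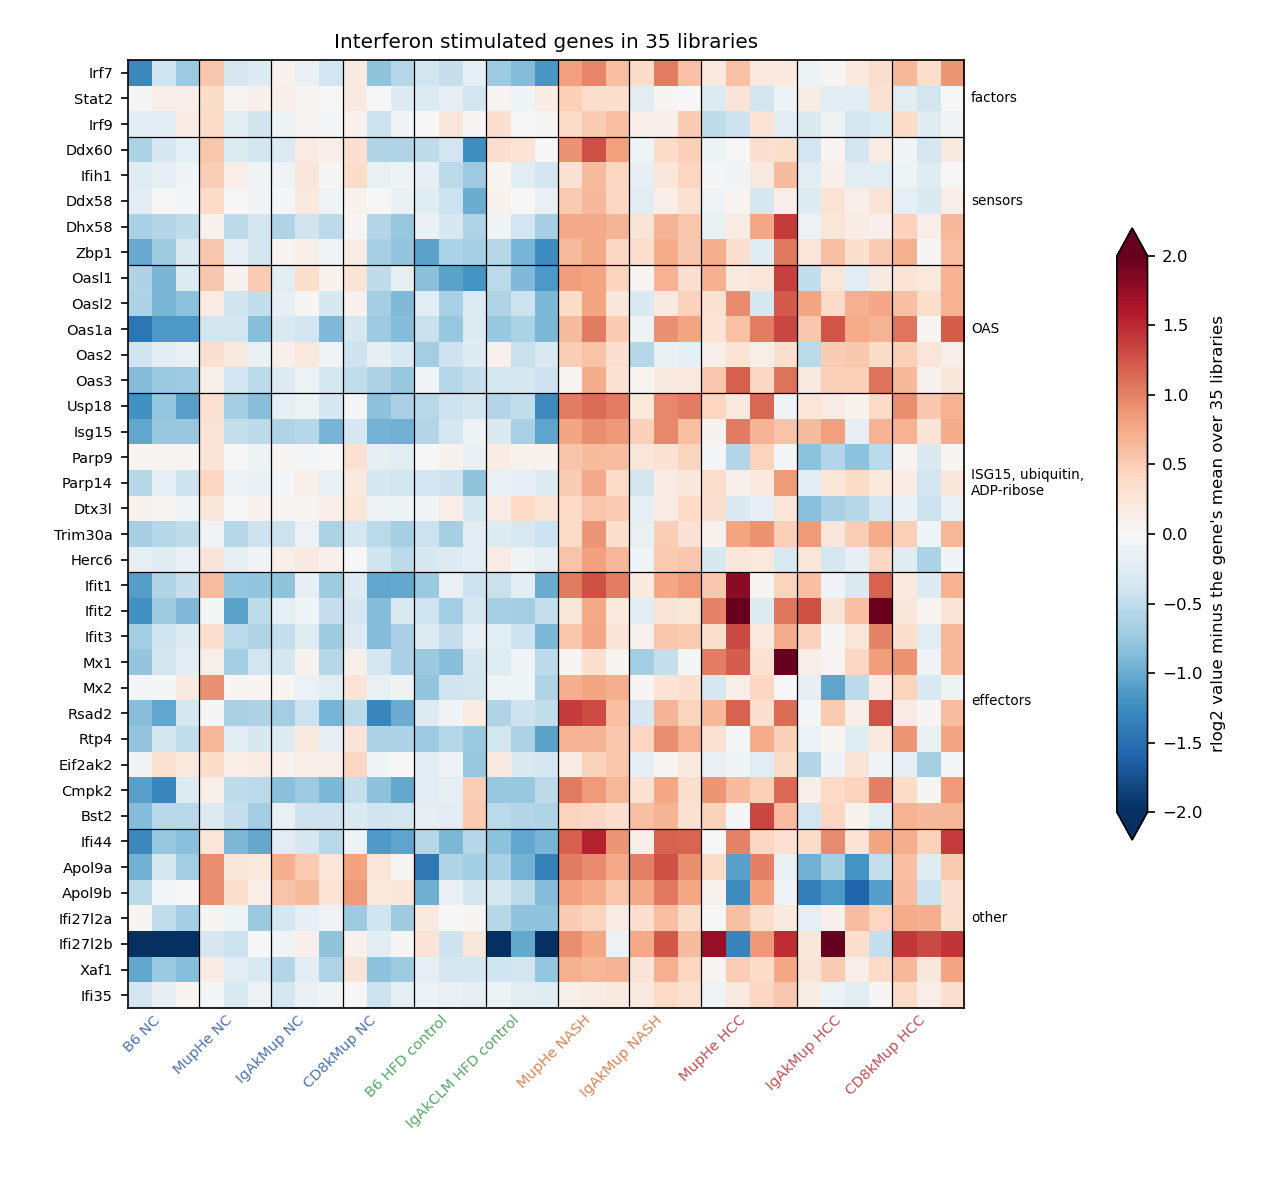
Each row is 1 of 37 members, ordered by role, and each column 1 of 35 libraries; colour gives the rlog2 value minus the gene's mean over the libraries, from blue (-2 or less) to red (2 or more). Red fills nearly all rows in MupHe NASH, while Apol9a, Apol9b, Parp9 and Dtx3l turn blue in IgAkMup HCC.

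NASH livers were compared with HFD control livers, as the mean of both NASH groups against the mean of both control groups. Of the 37 members, 29 rose and none fell, and the difference was positive for all 37, with a median of 0.86. Of all tested genes 1.05% were called higher and 0.276% lower (limma, Benjamini-Hochberg adjusted p under 0.05), and their median difference was -0.00. In 20 members every NASH library lay above every HFD control library, as it did in 1.75% of all tested genes. Leaving out 1 library at a time gave 21 to 28 members called higher.

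All 5 sensors of viral nucleic acid rose. The helicases Ddx58 (RIG-I) and Ifih1 (MDA5), which detect viral RNA in the cytoplasm, rose by 0.59 ± 0.12 (SE) and 0.64 ± 0.13, Dhx58 (LGP2), their regulator, by 0.98 ± 0.18 and Ddx60 by 0.88 ± 0.18. Zbp1, a sensor of Z-form nucleic acid that can start necroptosis, read 7.21, 7.34 and 6.98 in MupHe NASH and 6.93, 7.32 and 7.12 in IgAkMup NASH. HFD control livers read 5.50, 5.94 and 5.90 in B6 and 6.00, 5.65 and 5.33 in IgAkCLM. Every NASH liver lay above every control, and the difference was 1.43 ± 0.20 (limma adjusted p = 8.94e-05).

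Of the 3 transcription factors, Irf7 alone passed the test. Irf7 is the factor that amplifies interferon alpha production once a response has begun. Its values were 9.82, 9.99 and 9.61 in MupHe NASH and 9.38, 10.03 and 9.58 in IgAkMup NASH. In the controls they were 8.65, 8.54 and 8.82 (B6) and 8.28, 8.14 and 7.83 (IgAkCLM). The groups did not overlap, and the difference was 1.36 ± 0.17 (limma adjusted p = 3.15e-05). The ISGF3 subunits Stat2 and Irf9 differed by 0.29 ± 0.10 and 0.27 ± 0.14, with limma adjusted p = 0.207 and 0.438.

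Among genes that conjugate or remove ubiquitin-like proteins and ADP-ribose, 5 of 7 rose. Usp18, the protease that strips ISG15 from proteins and restrains the receptor, rose by 1.51 ± 0.19, and Isg15, the ubiquitin-like modifier itself, by 1.27 ± 0.18. Isg15 read 7.82, 7.96 and 7.90 in MupHe NASH and 7.51, 8.001 and 7.63 in IgAkMup NASH, against 6.45, 6.70 and 6.94 in B6 HFD control and 6.75, 6.39 and 5.98 in IgAkCLM HFD control. Every NASH value again lay above every control. Trim30a (0.75), Herc6 (0.66) and Parp14 (0.64) also rose, while Parp9 (0.43 ± 0.12, limma adjusted p = 0.0615) and its partner ubiquitin ligase Dtx3l (0.22 ± 0.11, limma adjusted p = 0.438) did not pass.

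The OAS genes encode synthases of 2′-5′ oligoadenylate, the activator of RNase L, or related proteins. Oasl1 rose by 1.47 ± 0.19, Oas1a by 1.26 ± 0.20, Oasl2 by 0.80 ± 0.20 and Oas3 by 0.62 ± 0.15, and Oas2 differed by 0.42 ± 0.14 (limma adjusted p = 0.169). Of 10 antiviral effectors 7 rose, from Ifit1 (1.36 ± 0.28), which binds foreign RNA caps, and Rtp4 (1.35 ± 0.19) to Bst2 (0.73 ± 0.16), the tetherin that holds virus particles on the cell. Cmpk2 and Rsad2 (viperin), neighbours on chromosome 12, rose by 0.99 ± 0.18 and 0.96 ± 0.21. Effectors that did not pass were Ifit2 (0.79 ± 0.27), Mx1 (0.33 ± 0.23) and Eif2ak2 (0.45 ± 0.14), the RNA-activated kinase PKR.

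All 7 remaining members rose. Ifi44 read 7.33, 7.67 and 7.01 in MupHe NASH and 6.25, 7.32 and 7.29 in IgAkMup NASH. Its controls read 5.56, 5.22 and 5.55 (B6) and 5.31, 5.09 and 5.21 (IgAkCLM). IgAkMup NASH 2 was the lowest NASH liver for Ifi44 and also had the lowest NASH score (0.09), yet it stood above every control. The differences were 1.82 ± 0.23 for Ifi44 and 1.94 ± 0.24 for Apol9a (limma adjusted p = 3.15e-05 for both), an apolipoprotein L family member. Ifi27l2b rose by 1.58 ± 0.39, but 9 of 12 fits without 1 library lost that call.

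**Figure D3:**
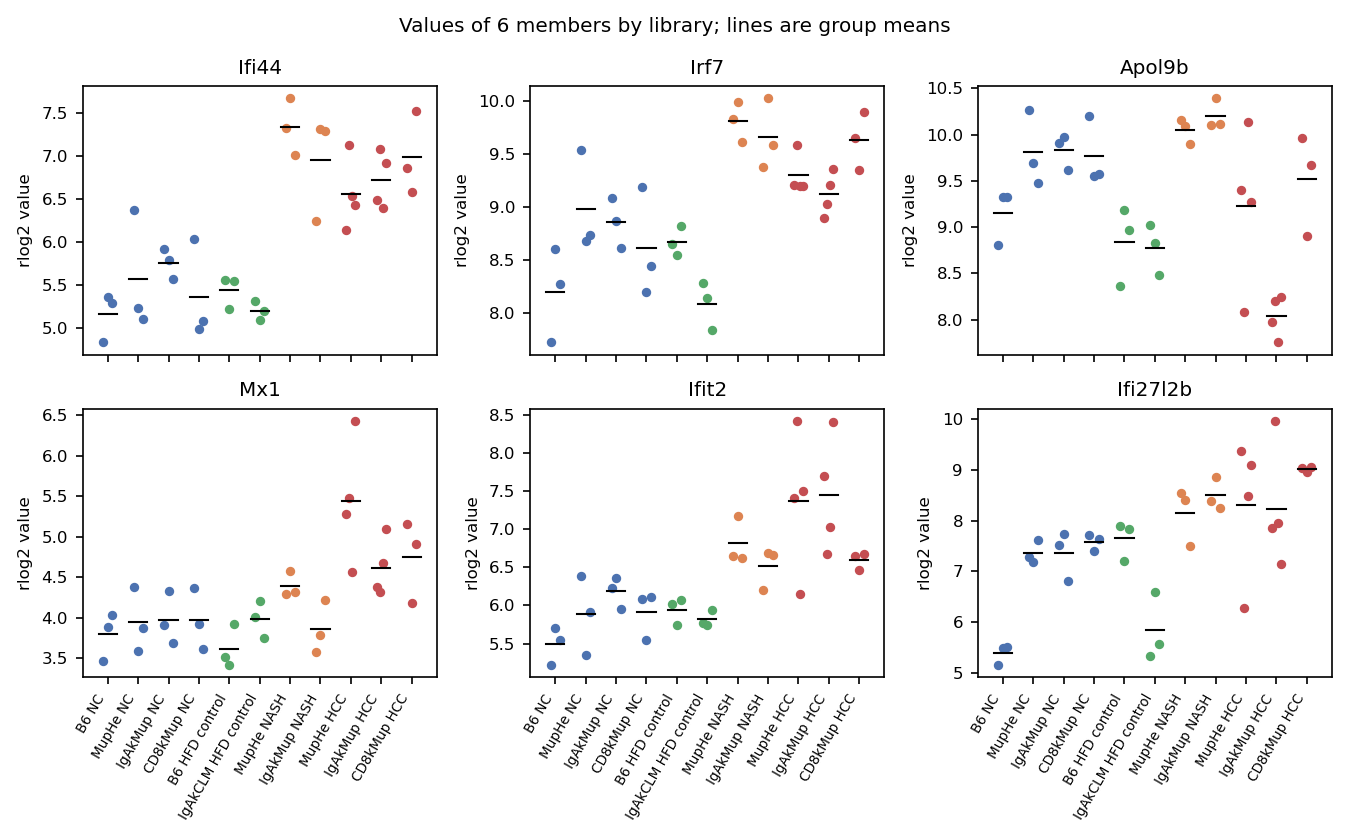
The rlog2 values of Ifi44, Irf7, Apol9b, Mx1, Ifit2 and Ifi27l2b (vertical axes, log2) in each library, by group, with lines at the group means. Ifi44 and Irf7 separate NASH from HFD controls, Mx1 is highest in MupHe HCC 7 (6.43), and Apol9b is at 7.75 to 8.24 in IgAkMup HCC.

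The comparison was then split by tag. Within Tri N, MupHe NASH against IgAkCLM HFD control, 16 members rose, against 0.446% of all tested genes (0.113% lower), with a median difference of 1.04. Within SS N, IgAkMup NASH against B6 HFD control, 5 rose, against 0.211% of all tested genes (0.0405% lower), with a median of 0.64. Those 5, namely Apol9a, Ifi44, Oasl1, Rtp4 and Zbp1, were all among the 16, and these contrasts share no library. Over all tested genes, 11 of the 26 called higher in SS N were among the 55 called higher in Tri N. All 37 members were positive in both. Testing the difference between the contrasts, limma called no member (0 of 37, with 4 at an unadjusted p under 0.05: Cmpk2, Rsad2, Ifi27l2a and Irf7), against 0.0243% of all tested genes higher and 0.0324% lower.

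Both counts depended on single libraries and on the estimate of spread. Without MupHe NASH 1 or MupHe NASH 2, 7 or 8 members were called in Tri N, and a fit of the compared groups alone called 33. In SS N no member was called without IgAkMup NASH 3, 1 was called without IgAkMup NASH 6 or without any single B6 HFD control, and 12 were called with the groups fitted alone. The share of all tested genes called in these fits was not taken. A changed estimate of spread alters calls of every gene, so these counts are not a result about the members alone.

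**Figure D4:**
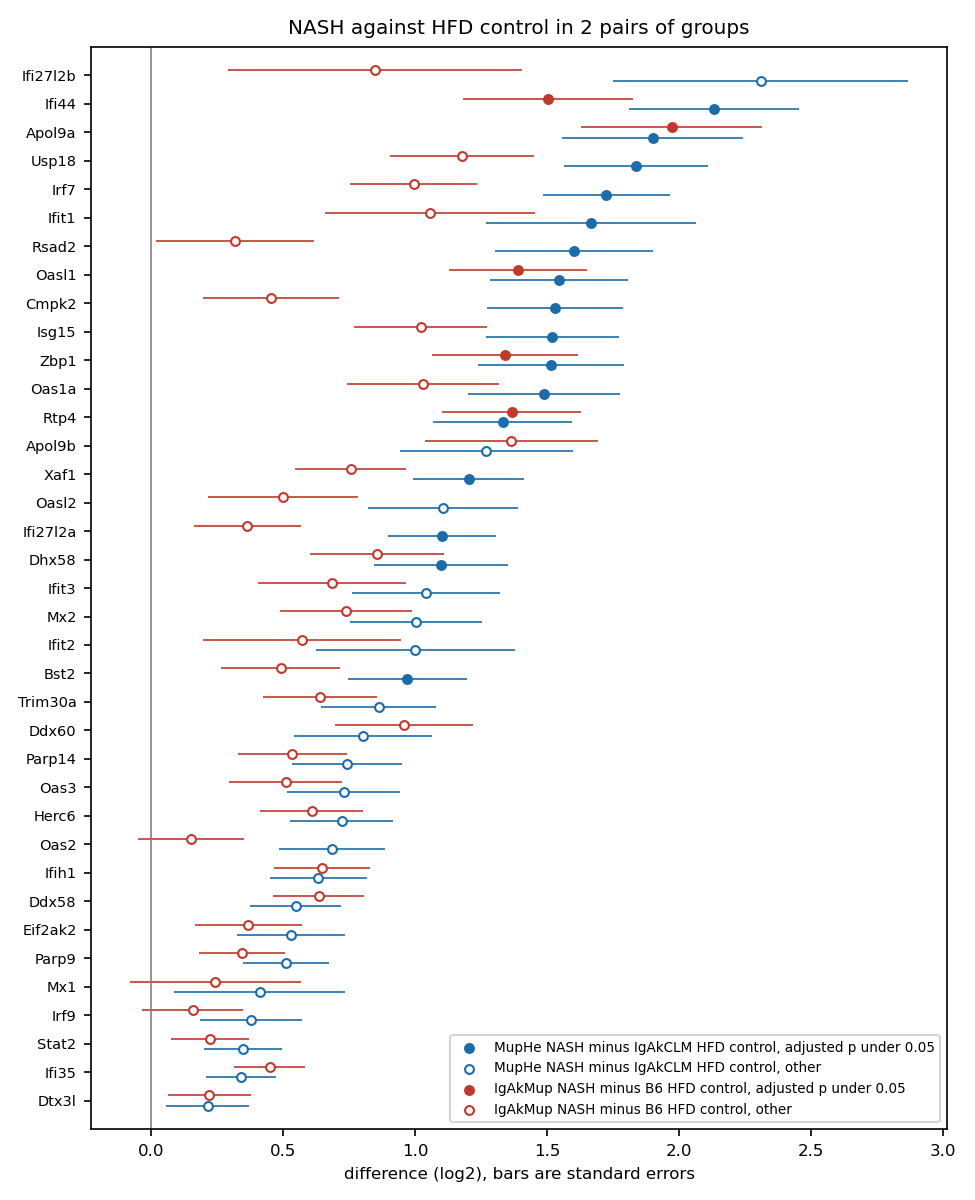
Differences of the 37 members (horizontal axis, log2, bars are standard errors) for MupHe NASH minus IgAkCLM HFD control (blue) and IgAkMup NASH minus B6 HFD control (red); filled points have a limma adjusted p under 0.05. Every point lies to the right of 0, from 0.15 (Oas2, IgAkMup) to 2.31 (Ifi27l2b, MupHe).

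Other genes of the pathway were counted from fixed lists in NASH against HFD control, where 1.05% of all tested genes were called higher and 0.276% lower. Of 21 interferon genes, 16 were listed at 0 in every library, including the interferon alpha genes and Ifnb1, and the other 5 (Ifne, Ifnk, Ifnz, Ifnl2 and Ifng) were under the minimum for testing. None of 9 tested receptor and kinase genes was called (limma, 1 at an unadjusted p under 0.05). Of 30 further type I targets 12 rose, led by Ly6a (1.30), Slfn8 (1.17), Ly6e (1.00) and Gvin1 (0.93). Of 19 targets of interferon gamma 6 rose, led by the GTPases Gbp6 (0.99), Gbp3 (0.93), Igtp (0.87) and Irgm1 (0.83). Among 12 sensing and adaptor genes, Tlr3 rose (0.49 ± 0.12).

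Marker genes of other cells were read beside these results. None of 8 recruited macrophage markers was called in NASH against HFD control (limma, 7 at an unadjusted p under 0.05; median difference 0.61). Their mean level was 5.25 to 5.66 in the NASH livers, 4.43 to 5.56 in B6 HFD control and 4.34 to 4.45 in IgAkCLM HFD control. Of 6 Kupffer cell markers Cd163 fell by 1.01 ± 0.20, and of 8 hepatocyte markers Hnf4a fell by 0.40 ± 0.09. The mean level of all 6 Kupffer markers was 8.11 and 8.05 in MupHe and IgAkMup NASH, and 8.36 and 8.07 in B6 and IgAkCLM HFD control. For the 8 hepatocyte markers it was 15.40 and 15.37 in these NASH groups, and 15.53 and 15.71 in these controls. Among 5 markers of dividing cells 3 rose, where 1.05% of all tested genes were called higher and 0.276% lower. All 6 markers of plasmacytoid dendritic cells, which are a major source of interferon alpha, were under the minimum for testing, as were 6 of 9 T and NK cell markers. In bulk tissue a change in the number of cells and a change in RNA per cell cannot be told apart, and the part these markers have in the result was not tested.

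HFD control and NC livers were compared next. In B6 HFD control against B6 NC, 4 members rose and 1 fell, against 9.59% and 11% of all tested genes, so the share that rose was close to the background and the share that fell below it. The 4 were Ifi27l2b (2.26 ± 0.56), Cmpk2 (0.91 ± 0.26), Bst2 (0.70 ± 0.23) and Xaf1 (0.59 ± 0.21), and Ddx58 fell by 0.47 ± 0.17. These groups carry different tags. With IgAkCLM HFD control in place of B6 HFD control, no member was called in either direction, and Ddx58 changed sign (0.06). The number that rose was also 1 without B6 HFD control 3 and 2 without B6 NC 1 or B6 NC 2, and Ddx58 was not called without B6 HFD control 3 or without any single B6 NC library.

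Ifi27l2b was low in B6 NC and IgAkCLM HFD control. It read 5.16, 5.49 and 5.52 in B6 NC and 5.35, 6.60 and 5.58 in IgAkCLM HFD control. In B6 HFD control it read 7.90, 7.21 and 7.84, and in the other NC groups 6.82 to 7.73. These low groups differ in genotype, in HFD against NC and in tag. After group means were removed Ifi27l2b had a correlation of 0.03 with the score of the other members (35 libraries). Ifi27l2a, at 0.05, and Bst2, at 0.17, were low by this measure as well.

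NASH livers were also set against NC livers of the same genotype, in contrasts that share NASH libraries with the ones above. In MupHe 11 members rose and none fell (median 0.64; 0.948% of all tested genes were called higher and 0.981% lower), and in IgAkMup 13 rose and none fell (median 0.48; background 5.53% higher and 7.39% lower). Of these, 9 were called in both genotypes, namely Bst2, Cmpk2, Dhx58, Ifi44, Isg15, Oas1a, Rsad2, Usp18 and Xaf1. They are 81.8% of the MupHe list and 69.2% of the IgAkMup list, where the genes shared over the whole table were 65.8% and 11.3%. Ifi44 differed by 1.76 ± 0.32 in MupHe and 1.19 ± 0.32 in IgAkMup, and Rsad2 by 1.53 ± 0.30 and 0.94 ± 0.30. In 7 members (Isg15, Oas1a, Dhx58, Ifi27l2a, Cmpk2, Ifi35 and Bst2) all 6 NASH livers lay above all 12 NC livers, as in 3.77% of all tested genes (3.24% lay lower). The count in MupHe was 4 without MupHe NASH 1 or MupHe NC 2, 3 without MupHe NASH 2 or MupHe NC 3, and 6 without MupHe NASH 6. In IgAkMup it was 3 without IgAkMup NASH 3, 7 without IgAkMup NASH 6, 8 without IgAkMup NC 1 and 6 without IgAkMup NC 3.

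Among NC livers limma called 0 of 37 members between genotypes (background 0.0405% higher and 0.00811% lower for MupHe against B6, 0.00811% in each direction for IgAkMup against MupHe, and 0% higher and 0.0162% lower for CD8kMup against MupHe). All 37 members were higher in MupHe NC than in B6 NC, with a median difference of 0.38, and 13 had an unadjusted p under 0.05 in limma (0 after adjustment), the largest being Ifi27l2b (1.98 ± 0.56), Apol9a (1.11 ± 0.34) and Oasl1 (0.98 ± 0.26). Without MupHe NC 1, the library with the high score, the median difference was 0.13. IgAkMup NC and CD8kMup NC differed from MupHe NC by medians of -0.05 and -0.21 (0.093 and -0.026 without MupHe NC 1), with 0 members called and 0 and 1 at an unadjusted p under 0.05 (limma).

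Tumours were compared with NASH livers of the same genotype, and the members no longer moved together. In MupHe, 1 member rose and 10 fell, with a median of -0.27, against 16% and 14.7% of all tested genes. In IgAkMup, 3 rose and 9 fell, with a median of -0.23 (-0.11 without IgAkMup NASH 3), against 23.2% and 20.7%. The share called lower was above the background in MupHe and near it in IgAkMup, and in both genotypes the share called higher was below it. Members called lower in both were Apol9a, Apol9b, Dtx3l, Irf9, Mx2 and Parp9, which is 6 of 10 in MupHe and 6 of 9 in IgAkMup. That is 60% of the MupHe list and 66.7% of the IgAkMup list, where the shares over all genes called lower were 57.9% and 41.1%. Mx1 was called higher in both.

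The Apol9 pair had the largest differences in IgAkMup. Apol9b read 7.98, 8.20, 7.75 and 8.24 in IgAkMup HCC, against 10.10, 10.39 and 10.11 in IgAkMup NASH. Every tumour of that genotype lay below every NASH liver. In MupHe HCC it read 9.40, 8.08, 10.14 and 9.27, against 10.16, 10.09 and 9.90 in MupHe NASH, so MupHe HCC 4 lay among the NASH livers and MupHe HCC 3 was lowest. Apol9b fell by 2.16 ± 0.31 in IgAkMup (limma adjusted p = 3.44e-06) and by 0.82 ± 0.31 in MupHe (limma adjusted p = 0.0419). The latter value was -0.44 and not called without the 3 tumours that stand apart, MupHe HCC 3 being the one of this genotype, and 5 of 7 fits without 1 library lost the call. The difference between the genotypes was -1.34 ± 0.43 (limma adjusted p = 0.0481), the only member called of 37 (6 others had an unadjusted p under 0.05), against 4.82% of all tested genes higher and 5.2% lower. It was lost in 12 of 14 fits without 1 library. Apol9a, whose printed stretch is identical, fell by 1.90 ± 0.32 in IgAkMup and 0.87 ± 0.32 in MupHe, where 5 of 7 fits without 1 library lost the call and the value without MupHe HCC 3 was -0.50.

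Parp9 and Dtx3l, which form a complex and overlap in the genome, fell in both genotypes. Parp9 fell by 1.01 ± 0.15 in IgAkMup, where the tumours read 8.26, 8.49, 8.26 and 8.54 against 9.30, 9.37 and 9.53 in NASH. In MupHe it fell by 0.66 ± 0.15, with tumours at 9.05, 8.49, 9.53 and 9.04 against 9.64, 9.71 and 9.70. In neither genotype did tumours and NASH livers overlap. Dtx3l fell by 0.74 ± 0.15 in IgAkMup and 0.46 ± 0.15 in MupHe, where 4 of 7 fits without 1 library lost the call.

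Of the ISGF3 subunits, Irf9 fell by 0.71 ± 0.18 in MupHe and 0.49 ± 0.18 in IgAkMup, where 3 of 7 fits without 1 library lost the call. Stat2 fell by 0.51 ± 0.14 in MupHe (limma adjusted p = 0.00583) and differed by 0.06 ± 0.14 in IgAkMup, where it changed sign without the tumours that stand apart (-0.17). Irf7 did not pass in either genotype, at -0.51 ± 0.23 and -0.54 ± 0.23 (limma adjusted p = 0.0872 and 0.053). In all 8 MupHe and IgAkMup tumours Irf7 read 8.90 to 9.59, above the 6 HFD controls at 7.83 to 8.82. Sensors split as well, with Ddx60 (0.86 ± 0.24) and Ddx58 (0.59 ± 0.16) falling by those amounts in MupHe, while Ifih1 differed by -0.27 and -0.31 without passing.

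Of the other members called in 1 genotype, Herc6 fell by 0.73 ± 0.18 in MupHe, and Rtp4 (0.71 ± 0.25), Bst2 (0.56 ± 0.21) and Ifi35 (0.34 ± 0.12) fell by those amounts in IgAkMup. Fits without 1 library lost the call of Rtp4 in 3 of 7 and those of Bst2 and Ifi35 in 4 of 7. Mx2 fell in both, by 0.69 ± 0.23 in MupHe and 0.61 ± 0.23 in IgAkMup. Its call was lost in 4 of 7 such fits in each genotype, with a value of -0.39 without IgAkMup HCC 7, and the MupHe value was -0.16 against IgAkMup NASH.

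Mx1, Mx2's neighbour and in intact form a GTPase against influenza and related viruses, was higher in tumours. It read 5.28, 5.47, 4.56 and 6.43 in MupHe HCC, against 4.29, 4.58 and 4.32 in MupHe NASH. In IgAkMup HCC it read 4.38, 4.32, 4.67 and 5.09, against 3.57, 3.78 and 4.22. MupHe HCC 4 lay within the NASH range of its genotype and all IgAkMup tumours lay above theirs. Mx1 rose by 1.04 ± 0.30 in MupHe (limma adjusted p = 0.0103) and 0.76 ± 0.30 in IgAkMup (limma adjusted p = 0.0438). The IgAkMup call was lost without the tumours that stand apart (0.64), with no filter on low values, and under median centring or quantile normalization of the libraries. Fits without 1 library lost the Mx1 call in 4 of 7 in IgAkMup and 1 of 7 in MupHe.

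Ifit2 and Oas2 rose in IgAkMup. Ifit2 read 7.70, 6.67, 7.03 and 8.40 in IgAkMup HCC against 6.20, 6.68 and 6.66 in NASH, and rose by 0.94 ± 0.35. The highest Ifit2 values of all 35 libraries were in MupHe HCC 3 (8.42) and IgAkMup HCC 9 (8.40), which both belong to the tumours that stand apart, and without the 3 tumours the difference was 0.34 and not called. Oas2 rose by 0.52 ± 0.19 in IgAkMup, a call lost with median centring or quantile normalization, and differed by -0.25 ± 0.19 in MupHe. Of 7 fits without 1 library in IgAkMup, 3 lost the call of Ifit2 and 4 that of Oas2. Isg15 (-0.27 and -0.18), Usp18 (-0.63 and -0.52) and Ifit1 (-0.40 and -0.26) did not pass in MupHe or IgAkMup.

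**Figure D5:**
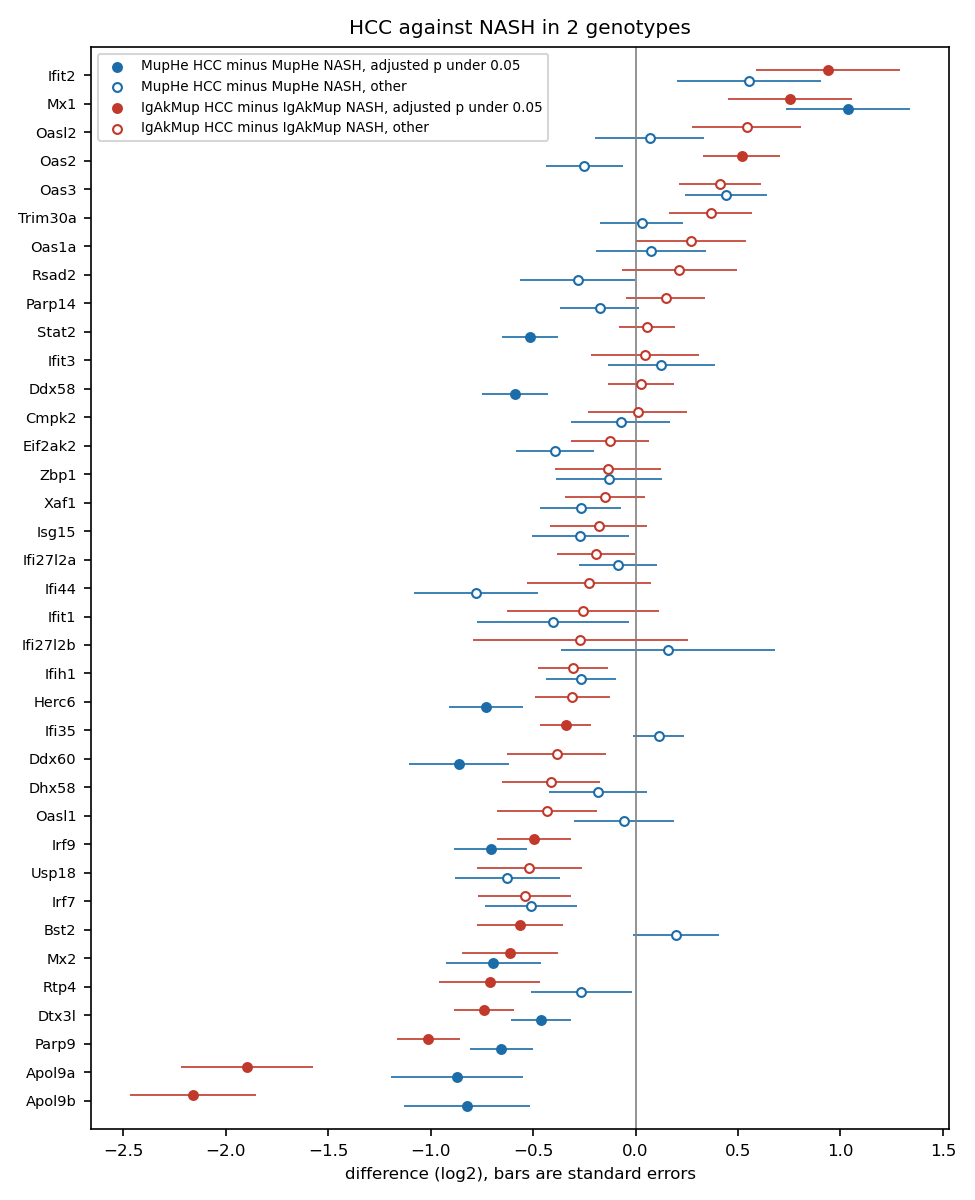
Differences between HCC and NASH of the 37 members (horizontal axis, log2, bars are standard errors) in MupHe (blue) and IgAkMup (red); filled points have a limma adjusted p under 0.05. Apol9b (-2.16) and Apol9a (-1.90) in IgAkMup lie farthest left, and Mx1 (1.04 and 0.76) lies right of 0 in both.

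Exchanging the NASH group was tried for MupHe only. MupHe NASH carries the tag Tri N and the tumours SS H. With IgAkMup NASH (SS N) in its place, 3 members rose and 2 fell, the median difference was -0.05, and Ifit1 (0.10), Oas2 (0.51) and Ifih1 (0.02) changed sign. Fitted alone, these groups gave 0 higher and 3 lower. Without MupHe NASH 2 or MupHe NASH 6, 5 or 6 members were called lower. In IgAkMup, 5 were called lower without IgAkMup HCC 8, IgAkMup NASH 3 or IgAkMup NASH 6. The members called higher there numbered 0 without IgAkMup HCC 9 or IgAkMup NASH 2, and 1 without IgAkMup HCC 8. In MupHe they numbered 0 without MupHe HCC 7, 2 without MupHe NASH 2 and 3 without MupHe HCC 4.

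Cell markers moved with stage in tumours more than in NASH. Of all tested genes, 16% were called higher and 14.7% lower in MupHe HCC against NASH, and 23.2% and 20.7% in IgAkMup. Recruited macrophage markers rose for 6 of 8 genes in MupHe HCC against NASH and 7 of 8 in IgAkMup, with mean levels of 6.26 to 6.62 and 6.44 to 7.43 in the tumours and 5.25 to 5.66 in NASH. Kupffer cell markers fell for 5 of 6 and 6 of 6 genes, with mean levels of 4.35 to 6.98 in these tumours and 7.84 to 8.52 in NASH. Hepatocyte markers fell for 4 and 3 of 8 genes, with mean levels of 13.94 to 14.71 in these tumours and 15.25 to 15.60 in NASH. The part these shifts have in the members' values was not tested. The interferon receptor genes rose in part, with Ifnar2 higher by 0.79 ± 0.12 in MupHe and Ifnar1 by 0.54 ± 0.13 in IgAkMup. Of 30 further type I targets 5 rose and 5 fell in MupHe and 6 rose and 4 fell in IgAkMup, shares near or below those of all tested genes given above. Among them Ifitm3, which blocks virus entry, fell in both (0.71 ± 0.17 and 0.80 ± 0.17), and the exonuclease Isg20 rose in both (0.63 ± 0.19 and 0.57 ± 0.19).

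Tumours were then compared with NC livers of the same genotype. In MupHe 18 members rose and none fell (median 0.48; background 20.6% higher and 19.5% lower). In IgAkMup 13 rose and 4 fell (median 0.31; background 22.9% and 22.1%), and in CD8kMup 20 rose and none fell (median 0.83; background 16.8% higher and 17% lower). The 4 that fell in IgAkMup were Apol9b (-1.79 ± 0.31), Apol9a (-1.33 ± 0.32), Parp9 (-0.69 ± 0.15) and Dtx3l (-0.68 ± 0.15). All 13 called higher in IgAkMup were also called in MupHe, which is 72.2% of the MupHe list. Over all genes called higher, the shared ones were 64.2% of the IgAkMup calls and 71.5% of the MupHe calls. In MupHe the count was 11 without MupHe NC 2 or MupHe NC 3, and 7 with the compared groups fitted alone.

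The leading genes were Mx1 (1.49 ± 0.30) and Ifit2 (1.49 ± 0.35) in MupHe, Oas1a and Cmpk2 (1.31 ± 0.24) in IgAkMup and Ifi44 (1.62 ± 0.32) in CD8kMup. Oas1a rose by 1.33 ± 0.27 in MupHe, 1.32 ± 0.27 in IgAkMup and 1.41 ± 0.29 in CD8kMup. It read 5.72 to 7.01 in the 11 tumours and 4.24 to 5.40 in the 12 NC livers, without overlap. Rsad2 likewise did not overlap. These 2 of 37 members are no larger a share than the 7% of all tested genes that lay higher in every tumour (6.45% lay lower). Against the 6 HFD controls, 11 members (Ifi44, Irf7, Oasl1, Usp18, Ifit2, Oas1a, Oas3, Rtp4, Xaf1, Trim30a and Zbp1) lay higher in all 11 tumours than in any of these controls, against a background of 6.55% (4.62% lower). Isg15 rose by 0.83 ± 0.24, 1.19 ± 0.24 and 1.32 ± 0.25 in the 3 genotypes, in the order given for Oas1a.

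Tumours of different genotypes carry 1 tag. IgAkMup HCC had 5 members called lower than MupHe HCC and none higher (background 4.12% higher and 6.01% lower), namely Apol9b (-1.18 ± 0.28), Oasl1 (-0.70 ± 0.23), Parp9 (-0.64 ± 0.14), Dtx3l (-0.63 ± 0.14) and Bst2 (-0.62 ± 0.20). Fitted alone, these 2 groups gave 0 calls, and 3 were left without MupHe HCC 7 or IgAkMup HCC 5. CD8kMup HCC had 4 members called higher than IgAkMup HCC (background 11.8% higher and 11.2% lower), namely Apol9b (1.47 ± 0.31), Apol9a (1.13 ± 0.32), Bst2 (0.70 ± 0.21) and Parp9 (0.61 ± 0.15), which is near the background. Fitted alone, 1 was called, and 2 were called without CD8kMup HCC 3 or CD8kMup HCC 8. Apol9b in CD8kMup HCC read 9.97, 8.91 and 9.67, above all 4 IgAkMup tumours. Between CD8kMup HCC and MupHe HCC limma called no member (0 of 37, with 3 at an unadjusted p under 0.05: Ifit2, Mx1 and Oas3), against 0.705% of all tested genes higher and 0.616% lower. Without MupHe HCC 4, 2 were called lower.

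Members varied in how closely they followed one another. The correlation of a member with the mean score of the other 36 had a median of 0.79 over 35 libraries, from 0.12 (Dtx3l) to 0.94 (Xaf1). Above 0.9 were also Ifi44 (0.93), Irf7 (0.92), Rtp4 (0.92), Usp18 (0.91), Isg15 (0.90) and Zbp1 (0.90). After the mean of each group was removed the median was 0.62, from 0.03 (Ifi27l2b) to 0.86 (Rtp4). These libraries share groups and tags, and the values are a description. Before that removal, the members that followed least were Dtx3l, Stat2 (0.24), Parp9 (0.25), Eif2ak2 (0.28), Apol9b (0.30) and Irf9 (0.34). Of these 6, Dtx3l, Parp9, Apol9b and Irf9 were called lower in HCC than in NASH in both genotypes. The same HCC and NASH values enter the correlations, so the 2 results are not independent. With group means removed, Dtx3l had 0.48, Parp9 0.52, Apol9b 0.52 and Irf9 0.55. The lowest were then Ifi27l2b, Ifi27l2a (0.05) and Bst2 (0.17).

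Outside the list, genes most like the score by correlation over the 35 libraries were Gbp3 (0.93), Oas1g (0.88), Parp12 (0.87), Slfn8 (0.86), Ifi47 (0.85), Irgm1 (0.84), Slfn9 (0.83), Gm12250 (0.82) and Ly6a (0.81). Mean levels of Gbp3 were 7.43 and 7.28 in MupHe and IgAkMup NASH, 6.93 to 7.19 in the tumour groups and 6.27 to 6.61 in the NC and HFD control groups.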

How the data were processed

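PolyA RNA-seq values of liver and tumour were used as the authors deposited them, as regularized log2 (rlog) values in 1 table of 24511 genes, a scale that in its usual form is normalized for library size and shrunk for low counts. Libraries were made with a stranded mRNA kit, per the labels' protocols. Per the submitters' processing notes, the build is mm10 and the tools are STAR with Cuffdiff (29 samples fed HFD) or with HOMER and DESeq2 (12 samples labelled NC). What each tool did, its version and the making of the rlog values: not given in the sources used here. RNA came from AllPrep columns or, for some livers, from Trizol, per the labels' protocols, which do not say which. Without counts, depth is unknown and intervals for counting error cannot be had.

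Columns were matched by name, and 6 that fitted both CD8kMup NASH and CD8kCLM HFD control were not used. NC columns matched single samples, and an NC library is called by its group and the number in the sample's title. For some this differs from the number in the column's name. The other columns matched a group, and their libraries are called by the group and the last number in the column's name. Of the genes, 5599 were constant. The 12337 with a mean of at least 3 entered a limma fit (limma 3.58.1, R 4.3.3) of 11 group means, with eBayes and trend, 19 two-sided contrasts and Benjamini-Hochberg adjustment over all kept genes at 0.05. The fit was tested on simulated data. No pair of libraries was identical. The 37 members and the other lists were chosen with earlier results of these data known. Named genes follow a rule: in each comparison the called members with the largest differences (up to 12), with Irf7, Stat2, Irf9, Isg15, Usp18, Ifit1, Mx1, Oas2 and Ifih1 given whatever their result for NASH against HFD control and HCC against NASH and, in other comparisons, where they were called or printed for another reason, and up to 4 called genes of each other list. A gene that the rule also names is not reported here. Others were named after their values were seen. Alternatives were other filters, median centring, quantile normalization, array weights, the compared groups alone, and leaving out each library. Leaving out 3 tumours and exchanging a group for one with a like tag were chosen after seeing the data.

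Same-numbered NC libraries of different genotypes had correlations of their deviations from -0.21 to 0.23 over 18 pairs. Pairs with different numbers ran from -0.28 to 0.24. These values give no sign that the numbers pair samples, but they cannot exclude it. Promoter windows and gene positions are RefSeq's, build GRCm38.p6, matched by symbol (26 and 37 members).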

Additional observations from a re-analysis of the deposited data

Results flagged for a closer look

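Groups of 4 were tested for a library far from the other 3 with Dixon's test at its usual critical value, over 76 sets of values (the 37 members and the mean score in MupHe HCC and IgAkMup HCC), of which chance flags about 1 in 20. It marked 3. Irf7 was 9.59 in MupHe HCC 3 against a group median of 9.20. Oas2 was 4.30 in IgAkMup HCC 5 against a median of 5.28. Ifih1 was 8.66 in IgAkMup HCC 7 against a median of 8.33. MupHe HCC 3 and IgAkMup HCC 5 are among the 3 tumours that stand apart on the second principal component, and whether this bears on the values was not tested.

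The change of Apol9b from NASH to HCC differed between genotypes by a test of the difference itself, at -1.34 (IgAkMup minus MupHe, limma adjusted p = 0.0481). Its direction held in all 14 fits without 1 library, at -1.72 to -1.03, and 12 of these lost the call.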

How the results depend on the processing

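The count of members higher in NASH than in HFD control stayed within 1.5 times of 29 under each alternative run, while counts in other contrasts moved. Shares of all tested genes were taken in the main fit only. Counts from every other fit, here and above, therefore have no background beside them and describe how calls depend on the fit. With the compared groups fitted alone, members called higher numbered 33 in MupHe NASH against IgAkCLM HFD control, 12 in IgAkMup NASH against B6 HFD control, 22 in both MupHe and IgAkMup NASH against NC, 7 in MupHe HCC against NC, 1 in IgAkMup HCC against NASH, 1 in CD8kMup against IgAkMup HCC and 1 in MupHe against B6 NC. MupHe HCC against NASH gave 0 higher and 3 lower, B6 HFD control against NC 2 lower, and IgAkMup against MupHe HCC and the difference of the HCC contrasts 0 lower. With array weights the counts higher were 34 and 23 in the NASH contrasts within a tag, 28 and 22 in MupHe and IgAkMup NASH against NC, 9 in MupHe HCC against NC, 4 in MupHe against B6 NC and 1 in the difference of the HCC contrasts. The counts lower were 5 in MupHe HCC against NASH, 2 in that difference and in B6 HFD control against NC, 1 in CD8kMup HCC against NC and against IgAkMup HCC, and 0 in IgAkMup against MupHe HCC. Quantile normalization gave 3 higher in IgAkMup NASH against B6 HFD control and 0 in IgAkMup HCC against NASH, and 0 lower in the difference of the HCC contrasts. No filter gave 0 lower in that difference and 3 lower in IgAkMup against MupHe HCC. Both, and median centring, gave 0 lower in B6 HFD control against NC. Median centring and a minimum mean of 5 each gave 1 higher in IgAkMup HCC against NASH, and that minimum 0 in MupHe HCC against NASH. The B6 HFD control score was -0.35 under either scaling, and Stat2 in IgAkMup HCC against NASH -0.011 under median centring.

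Without the 3 tumours that stand apart, IgAkMup HCC against NASH had 1 member higher and Stat2 at -0.17, the difference of the HCC contrasts 2 higher and 3 lower, and MupHe HCC against NC 1 lower. With the group of a like tag, B6 NC was exceeded by 0 members (0 lower, Ddx58 0.062), and MupHe HCC against NASH had 3 higher and 2 lower (median -0.046), with Ifit1 at 0.10, Oas2 at 0.51 and Ifih1 at 0.020. The cause of these shifts was not tested.

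Leaving out each library in turn gave these ranges. Members higher numbered 7 to 14 in MupHe NASH against IgAkCLM HFD control, 0 to 5 in IgAkMup NASH against B6 HFD control, 1 to 3 (lower 0 to 1) in B6 HFD control against NC, 3 to 13 and 3 to 11 in MupHe and IgAkMup NASH against NC, and 11 to 19 (lower 0 to 1) in MupHe HCC against NC. They numbered 0 to 3 (lower 5 to 10) in MupHe HCC and 0 to 3 (lower 5 to 11) in IgAkMup HCC against NASH, where Isg15 ran from -0.29 to 0.043 and Stat2 from -0.044 to 0.13, and 0 to 2 (lower 0 to 4) in the difference of these contrasts. Between tumours, 3 to 6 were lower in IgAkMup than MupHe, 0 to 2 lower in CD8kMup than MupHe, and 2 to 5 higher (lower 0 to 1; median 0.00065 to 0.29) in CD8kMup than IgAkMup. The medians ran from 0.66 to 1.03 in CD8kMup HCC against NC and from 0.13 to 0.51 in MupHe against B6 NC, -0.15 to 0.093 in IgAkMup and -0.36 to -0.026 in CD8kMup against MupHe NC, and -0.33 to -0.11 in IgAkMup HCC against NASH. Of 1041 values of single members in such fits, 802 kept direction and call, 232 lost the call, 4 gained it and 3 changed sign.

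With the replicate number as a block among NC libraries, 0 members were called in each NC comparison, with medians of 0.38, -0.05 and -0.21. No paired analysis was possible for the other comparisons because their columns carry no replicate number of the labels. Depth is unknown, so what it limits cannot be stated.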
